A study of Apostichopus japonicus with 12 samples.

Results

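The response shared by 3 stressed groups of Apostichopus japonicus, a sea cucumber, was described in the intestine as the genes whose level moved the same way from the control in each group. The 3 treated groups were high temperature (26 °C and 7 mg/L dissolved oxygen), low oxygen (18 °C and 3 mg/L) and combined (26 °C and 3 mg/L), and each was held for 6 h. The reference was a control at 18 °C, for which the text of the series states the same 3 mg/L of oxygen as for the low oxygen group, so its oxygen level is in doubt. Each group had 3 libraries, 12 in all, made from the RNA of single animals. A gene entered if it had an FPKM (fragments scaled by model length and by library size) of at least 1 in at least 3 libraries, which 15615 of 26461 gene models did. The members of the response were the genes called in the common contrast, which is the mean of the 3 treated group means minus the control mean on log2(FPKM + 1), and whose 3 group differences shared one sign. There were 57 such genes, of which 20 rose and 37 fell.

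Cells meet proteins unfolded by heat or by a shortage of energy with chaperones. In the cytosol these are HSP70 with its DnaJ partners and exchange factors, HSP90 with its co-chaperones, and the small heat shock proteins, which keep unfolding clients in solution. In the endoplasmic reticulum they are BiP, endoplasmin, calreticulin and the disulfide isomerases. Fatty acids are made in the cytosol from citrate by ATP-citrate synthase and fatty acid synthase, then lengthened by elongases and desaturated. Mitochondria and peroxisomes burn them. The gut of a deposit feeder such as the sea cucumber both digests food and handles the lipid that is absorbed.

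Depth, recovered as whole fragments from the deposited values, ran from 8.15 to 10.9 in units of 1e6 fragments per library. The 10 most abundant models took 19.8% to 44.0% of the fragments. The libraries combined 1 and combined 3 stood apart: the library sizes that scale their FPKM were 0.529 and 0.526 of their totals, against 0.935 to 1.58 for the other 10 libraries. Control 3 stood apart in its digestive enzymes, which summed to 2440 FPKM over 45 members, against 395 and 397 FPKM in the other control libraries. Among the treated libraries the sum lay between 157 and 457 FPKM at high temperature, between 287 and 526 at low oxygen, and between 395 and 905 in the combined group. Of the 45 members, 1 had no fragment in any library, and enzymes of the gut lining were thus detected in every group.

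Under the model with a mean per group, 24 genes rose and 37 fell in the common contrast (limma, Benjamini-Hochberg adjusted p under 0.05 over 15615 genes). These are 0.154% and 0.237% of the genes tested. Sharing one sign is frequent among all genes: 3796 (24.3%) were higher and 4039 (25.9%) lower in each treated group, and since the 3 comparisons use the same control libraries, that share (50.2% in all) is no result. Called and of one sign were 20 rises (0.128%) and 37 falls (0.237%), in all 57 genes (0.365%). At an unadjusted p under 0.05, 1467 genes passed (9.39%), of which 538 were higher and 929 lower. The comparisons taken singly gave 7 rises (0.0448%) and 4 falls (0.0256%) at high temperature, 0 rises and 1 fall (0.0064%) at low oxygen, and 93 rises (0.596%) and 30 falls (0.192%) in the combined group. A stricter test that asks for a difference in each of the 3 comparisons at once called 0 genes after adjustment, and 249 (1.59%) at an unadjusted p under 0.05, of which 33 (0.211%) were higher and 216 (1.38%) lower. With voom on recovered fragments it called 0 genes as well. For low oxygen alone 350 of the 15615 genes were higher and 634 lower at an unadjusted p under 0.05, and 5 of the 20 rises were among those higher. The common contrast includes the low oxygen libraries, so the count among the rises describes them and supports nothing. The falls were not counted in this way.

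The 20 rises were graded: their median log2 difference from control was 2.72 at high temperature, 0.97 at low oxygen and 6.19 in the combined group. The combined group had the largest difference in 17 of them and high temperature in 3, while low oxygen had the smallest in 18. A test of the difference among the 3 treated groups called 13 of the 20 (limma moderated F-test, adjusted p under 0.05), against 46 of all genes tested (0.295%). The test does not use the control mean, but its estimate of spread, over all 12 libraries, also serves the common contrast. A small spread thus favours both calls. A very high mean in the combined group also raises both the common contrast and the difference among groups, so the count describes the members. Of those 13, assembled models 766 and 636 reached 1 FPKM in 3 libraries, as the filter on low values asks, through the combined group alone, so that the filter fixed their difference. Among genes that passed the filter without the combined libraries, the test called 11 of 18 rises and 23 of all 14695 genes (0.157%). Among the 37 falls it called 0, with a smallest adjusted p of 0.526, and 2 had an unadjusted p under 0.05. Their medians were -2.77 at high temperature, -2.78 at low oxygen and -2.57 in the combined group. The range of the 3 group means had a median of 5.03 log2 units among the rises and 0.76 among the falls. All 20 rises were also called in the combined group alone, with 5 at high temperature and 0 at low oxygen, whereas of the falls 19, 4 and 1 were called in the same order of groups. A missed call does not show that the groups fell alike, and 15 of the 37 falls passed the filter through the control alone, so they had to be lower in the treated groups.

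**Figure D1:**
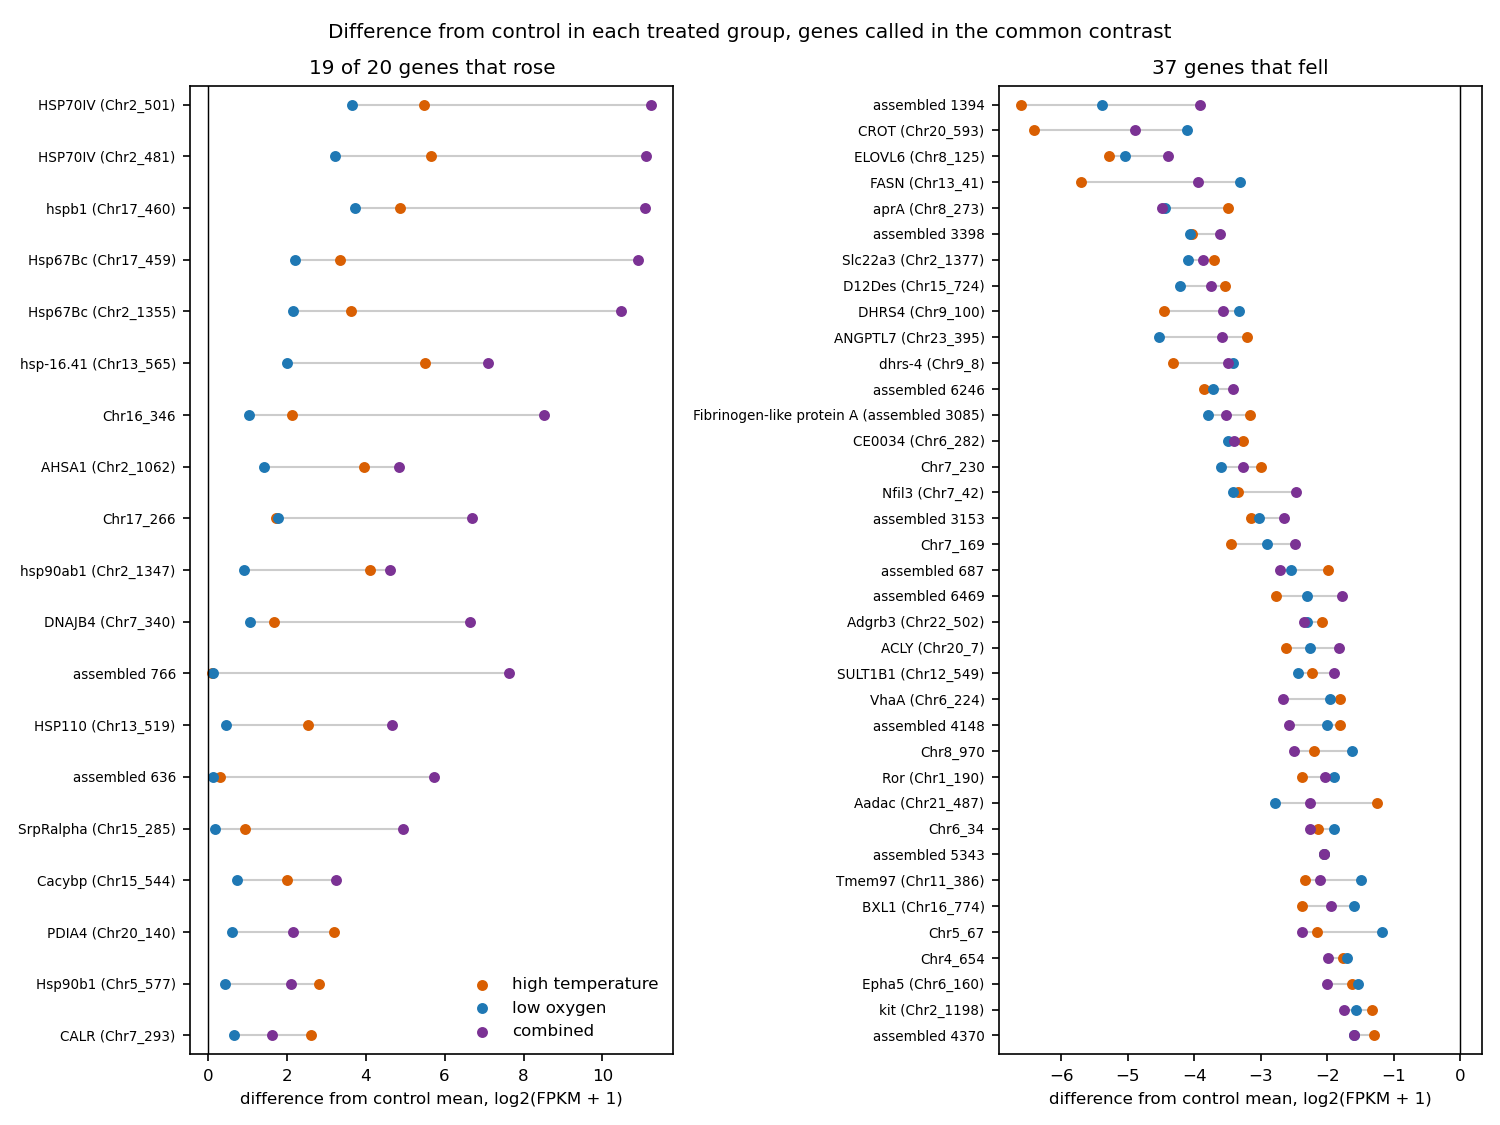
Difference of each treated group mean from the control mean on log2(FPKM + 1), 1 row per gene, for 19 of the 20 genes that rose (left) and the 37 that fell (right). Points of a row spread over up to 8.69 log2 units among the rises, with the combined group mostly farthest right, and over up to 2.70 among the falls.

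**Figure D2:**
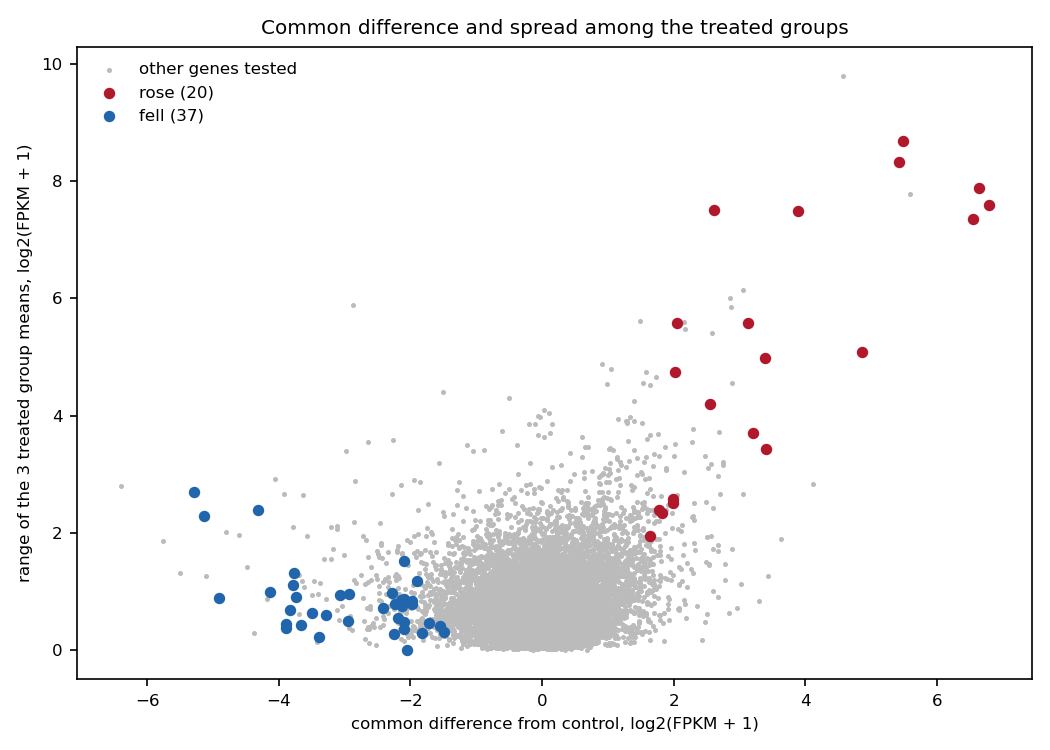
Common difference from control (x, log2(FPKM + 1)) against the range of the 3 treated group means (y, same scale), 1 point per gene of 15615 tested. The 20 rises lie between 1.95 and 8.69 on the y axis, and the 37 falls between 0 and 2.70.

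Of the 20 rises, 16 had every one of the 9 treated libraries above all 3 control libraries, a pattern that 117 of all genes (0.749%) showed. Of the 37 falls, 35 had every treated library below all 3 control libraries, against 210 of all genes (1.34%). The calling rule favours such genes, so these counts describe the members and support nothing. Taken by group, the 3 libraries lay above all controls in 17 of the 20 rises at high temperature, 17 at low oxygen and 20 in the combined group. Among the falls they lay below all controls in 36, 37 and 36 of 37 genes, in the same order of groups. The share of all genes tested with this pattern was not counted by group. The calling rule favours such genes here too, so the counts by group also describe the members and support nothing.

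The rises were mostly chaperones. Of 6 small heat shock genes tested, 4 rose and 0 fell, and the list's median common difference was 5.45, beside 0.00 over all genes. Of 13 tested members of the HSP70 list, 3 were called as rises, of which 2 had one sign in each group, and 0 fell (median 1.03). HSP90 and its co-chaperones gave 3 rises and 0 falls of 11 (median 1.78). Among 33 DnaJ genes 1 rose and 0 fell (median 0.02), and of 10 chaperonin subunits 0 were called although 7 were higher in each group and 7 had an unadjusted p under 0.05 (median 1.28). The list of protein folding in the endoplasmic reticulum gave 4 rises, of which 3 had one sign, and 0 falls of 37, with 25 higher in each group (median 0.70). Endoplasmin stands in both this list and that of HSP90. Over all genes tested, 0.154% were called as rises and 24.3% were higher in each group, and 9.39% had an unadjusted p under 0.05. Genes are named after their best match elsewhere, and close copies within the HSP70 and small heat shock families may share reads, so single members of these are uncertain.

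HSP70IV, matched to a sea urchin HSP70, had 2 copies on chromosome 2 among the members. The first (chromosome 2, 16541950 to 16546332, 2 exons) had 19.01, 429.7 and 55.1 FPKM at high temperature, 27.98, 74.3 and 3.89 at low oxygen and 1704, 8534 and 5221 in the combined group, against 0.449, 1.33 and 0.605 in the control. Every treated library lay above every control library, with low oxygen 3 the lowest and combined 2 the highest of the treated ones. The copy rose (log2 difference 6.79, SE 0.90, adjusted p = 0.0127), with differences of 5.48 at high temperature, 3.65 at low oxygen and 11.24 in the combined group, and the 3 groups differed among themselves (adjusted p = 0.0184, limma F-test). The second copy (chromosome 2, 15987373 to 15991527) had 25.9, 482 and 100.1 FPKM at high temperature, 19.4, 61.5 and 5.62 at low oxygen and 2620.2, 14773 and 2871 in the combined group, against 0.390, 2.46 and 1.20 in the control. It rose as well (log2 difference 6.65, SE 0.85, adjusted p = 0.00995), again with the smallest difference at low oxygen, 3.21, where it was not called (adjusted p = 0.633). With each of the 12 libraries left out in turn, each copy stayed called in 10 cases. With voom on recovered fragments, neither copy was called.

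Of the 6 small heat shock genes tested, the 4 that rose stood between 0 and 5.17 FPKM in the control and between 62.7 and 11505 FPKM in the combined group. The gene named hspb1, an ATP-independent holdase (chromosome 17, 15156465 to 15158310, 1 exon), had 6.73, 414 and 22.6 FPKM at high temperature, 22.1, 86.8 and 2.43 at low oxygen and 3755, 8189 and 977 in the combined group, against 0, 0.582 and 0.896 in the control. It rose (log2 difference 6.56, SE 1.12, adjusted p = 0.0333), and within high temperature and low oxygen the libraries spread over more than an order of magnitude. Beside it, 1308 bases away on the other strand, lies a gene matched to fly Hsp67Bc (chromosome 17, 15153511 to 15155157), which also rose (log2 difference 5.48, SE 0.96, adjusted p = 0.0357). That gene reached 1957, 11505 and 431 FPKM in the combined group and stood at 0, 0.140 and 0.228 in the control. Its values were 1.38, 53.7 and 10.1 FPKM at high temperature and 5.42, 9.51 and 1.07 at low oxygen, all above the control. A second Hsp67Bc copy (chromosome 2, 41593406 to 41595272) had 5.33, 275 and 21.4 FPKM at high temperature, 15.7, 36.6 and 1.84 at low oxygen and 6096, 7644 and 1272 in the combined group, against 5.17, 1.11 and 0.564 in the control. It rose (log2 difference 5.42, SE 1.04, adjusted p = 0.0495) although control 1, at 5.17 FPKM, lay above low oxygen 3, at 1.84 FPKM. The gene matched to worm hsp-16.41 (chromosome 13, 20225435 to 20226229) had 78.3, 479 and 58.02 FPKM at high temperature, 7.93, 13.8 and 11.1 at low oxygen and 747, 1294 and 62.7 in the combined group, against 0.473, 4.73 and 1.89 in the control. It rose (log2 difference 4.87, SE 0.84, adjusted p = 0.0333), with every treated library above every control. The other 2 members were not called and reached 45.7 and 85.6 FPKM in the control. CRYAA, matched to the alpha-crystallin A chain, had 71.95, 1013 and 85.5 FPKM at high temperature, 58.4, 163 and 4.93 at low oxygen and 11090.2, 22272 and 2516 in the combined group, against 1.31, 45.7 and 4.01 in the control (log2 difference 5.60, SE 1.16, adjusted p = 0.0781). CRYAB, matched to the alpha-crystallin B chain, had 78.9, 82.6 and 76.9 FPKM at high temperature, 12.7, 42.01 and 54.6 at low oxygen and 540.3, 199 and 163 in the combined group, against 85.6, 58.5 and 17.9 in the control (log2 difference 0.93, SE 0.54, adjusted p = 0.642). CRYAA overlapped the control at low oxygen through control 2, and CRYAB overlapped it at high temperature and at low oxygen. With each of the 12 libraries left out in turn, hspb1 stayed called in 5 cases, Hsp67Bc on chromosome 17 in 4 and hsp-16.41 in 3. With voom on recovered fragments, hspb1, Hsp67Bc on chromosome 17 and hsp-16.41 were not called.

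HSP90 genes rose with less spread within groups. AHSA1 activates the ATPase of HSP90 (chromosome 2, 32242578 to 32254826, 10 exons). It had 80.8, 111 and 61.5 FPKM at high temperature, 13.8, 16.5 and 10.2 at low oxygen and 316, 188 and 60.4 in the combined group, against 4.46, 5.21 and 3.59 in the control. No treated library overlapped the control, and the lowest were the 3 of low oxygen. AHSA1 rose (log2 difference 3.40, SE 0.42, adjusted p = 0.00940), and with each of the 12 libraries left out in turn it stayed called in 11. The groups differed among themselves (F-test adjusted p = 0.0257), with differences of 3.95 at high temperature, 1.41 at low oxygen and 4.84 in the combined group. The cytosolic HSP90 gene, hsp90ab1 (chromosome 2, 41433949 to 41444906), was among the abundant members, with 773, 2455 and 802 FPKM at high temperature, 145, 89.6 and 147 at low oxygen and 1969, 2587 and 836 in the combined group, against 49.8, 72.1 and 79.3 in the control. Its low oxygen libraries lay just above the controls and the other 6 far above them (log2 difference 3.20, SE 0.44, adjusted p = 0.0143). For low oxygen alone its difference was 0.90, which was not called (adjusted p = 0.818).

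**Figure D3:**
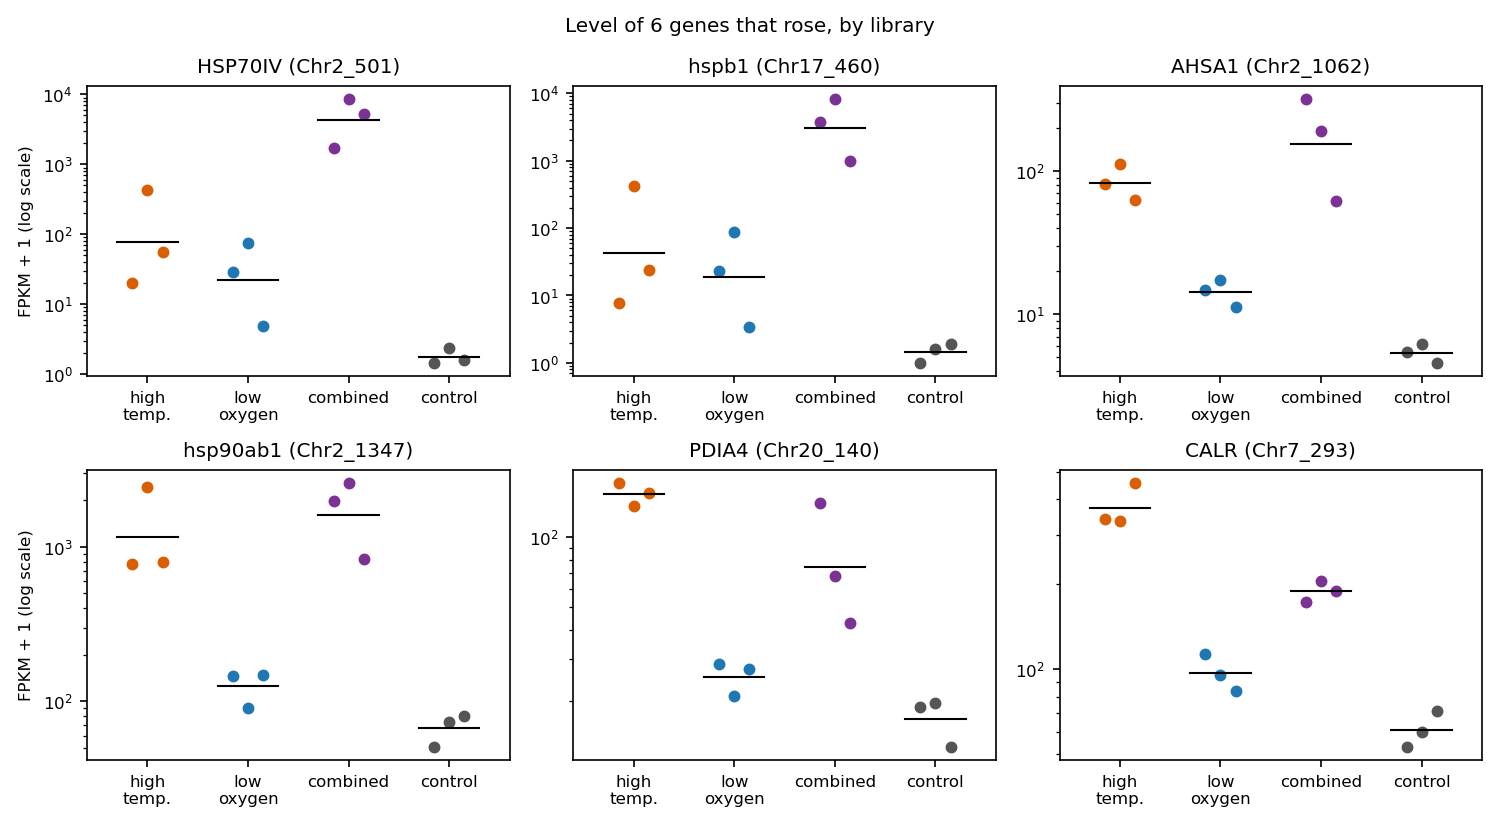
FPKM + 1 per library on a log axis for 6 genes that rose; points are the 3 libraries of a group and bars the mean on the log scale. Low oxygen points lie lowest among the treated groups for AHSA1, where they run from 10.2 to 16.5 FPKM, and above the controls, which reach 5.21 FPKM.

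The partners of HSP70 followed. HSP110, which exchanges nucleotide on HSP70 and is named from a sea urchin, stood outside the HSP70 list because its description did not match the pattern. HSP110 (chromosome 13, 18646224 to 18665144) had 58.4, 144 and 95.9 FPKM at high temperature, 22.3, 20.3 and 21.3 at low oxygen and 357, 753 and 256 in the combined group, against 10.4, 17.1 and 19.8 in the control. At low oxygen it lay close to the highest control, and it rose over the 3 groups (log2 difference 2.55, SE 0.38, adjusted p = 0.0210; F-test adjusted p = 0.00265). DNAJB4, a J-domain partner of HSP70, had 27.9, 93.95 and 16.4 FPKM at high temperature, 17.1, 37.3 and 19.2 at low oxygen and 891, 1773 and 962 in the combined group, against 16.8, 10.4 and 6.32 in the control. The groups overlapped, since high temperature 3 at 16.4 FPKM lay under control 1 at 16.8 FPKM, yet DNAJB4 rose (log2 difference 3.13, SE 0.49, adjusted p = 0.0244). DNAJA1 lay just outside the threshold (log2 difference 2.68, SE 0.52, adjusted p = 0.0510), with 37.4, 126 and 41.1 FPKM at high temperature, 10.4, 11.6 and 11.7 at low oxygen and 94.8, 257 and 34.7 in the combined group, against 4.87, 6.56 and 4.94 in the control. Its 9 treated libraries were all above the 3 controls.

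PDIA4, endoplasmin and calreticulin, which work in the endoplasmic reticulum, had their largest differences at high temperature. PDIA4, a disulfide isomerase (chromosome 20, 3961732 to 3979851), had 169, 134 and 153 FPKM at high temperature, 27.6, 19.8 and 26.3 at low oxygen and 139, 67.4 and 42.1 in the combined group, against 17.8, 18.5 and 11.7 in the control. It rose (log2 difference 1.98, SE 0.35, adjusted p = 0.0352), with differences of 3.19 at high temperature, 0.60 at low oxygen and 2.16 in the combined group. Hsp90b1, or endoplasmin, the HSP90 of this compartment (chromosome 5, 18231158 to 18248503), had 412, 359.8 and 453 FPKM at high temperature, 78.9, 67.9 and 82.8 at low oxygen and 409.8, 267 and 137 in the combined group, against 64.9, 57.8 and 48.7 in the control. Low oxygen lay closest to the control, with its lowest library at 67.9 FPKM against 64.9 FPKM in the highest control (log2 difference 1.78, SE 0.33, adjusted p = 0.0421). CALR, the calcium-binding lectin chaperone calreticulin (chromosome 7, 9880128 to 9889205), had 341, 335 and 456 FPKM at high temperature, 112, 94.8 and 82.6 at low oxygen and 172, 204 and 188 in the combined group, against 52.1, 59.00 and 69.9 in the control. It rose (log2 difference 1.64, SE 0.26, adjusted p = 0.0244), with differences of 2.62 at high temperature, 0.67 at low oxygen and 1.63 in the combined group. Endoplasmin and calreticulin each overlap a model on the other strand, and the library preparation names no step that marks strand, so reads of such partners cannot be told apart. BiP (HSPA5), the HSP70 of the compartment, was higher in each group but not called, with 578, 692 and 515 FPKM at high temperature, 159.8, 70.9 and 160.1 at low oxygen and 1292, 597 and 213 in the combined group, against 78.3, 70.1 and 60.2 in the control (log2 difference 2.29, SE 0.46, adjusted p = 0.0689).

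SrpRalpha, the receptor subunit that docks ribosomes to the endoplasmic reticulum, met the definition mainly through the combined group. It had 18.7, 16.7 and 40.1 FPKM at high temperature, 13.5, 14.1 and 12.8 at low oxygen and 306, 466 and 411 in the combined group, against 10.3, 12.5 and 12.7 in the control. Low oxygen, at 12.8 to 14.1 FPKM, was hardly above the highest control, at 12.7 FPKM, and the groups differed among themselves (F-test adjusted p = 1.19e-04). The common rise was 2.02 (SE 0.30, adjusted p = 0.0210). Cacybp, which in mammals binds the ubiquitin ligase Siah, had 46.1, 44.2 and 95.4 FPKM at high temperature, 19.6, 16.8 and 38.3 at low oxygen and 109.7, 185 and 130.0 in the combined group, against 12.2, 13.9 and 15.3 in the control. Its treated libraries all lay above the controls (log2 difference 1.99, SE 0.34, adjusted p = 0.0333).

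Of the 20 rises, 4 had no name. Model Chr17_266 (chromosome 17, 9382617 to 9389257, 5 exons) had 9.24, 42.2 and 8.88 FPKM at high temperature, 12.8, 12.5 and 25.96 at low oxygen and 701, 642 and 301 in the combined group, against 8.15, 3.32 and 2.12 in the control, and it rose (log2 difference 3.40, SE 0.51, adjusted p = 0.0210). Model Chr16_346 (chromosome 16, 10817560 to 10822031) had 1.96, 18.4 and 0.795 FPKM at high temperature, 1.73, 2.26 and 0.212 at low oxygen and 661, 808 and 115 in the combined group, against 0, 0.169 and 0.0664 in the control, and it rose (log2 difference 3.89, SE 0.71, adjusted p = 0.0421). The assembled models 766 and 636 overlap on opposite strands of chromosome 10 and count as 1 signal. They had 0 fragments in all 3 controls and no more than 0.708 FPKM in any high temperature or low oxygen library, so they met the definition by traces only and passed the filter through the combined group alone. Against a floor of 3 fragments over the control group, assembled model 766 was at least 505-fold higher and assembled model 636 at least 145-fold higher over the 9 treated libraries, nearly all of it from the combined group.

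In 4 more genes the common contrast was called as a rise while low oxygen did not share the sign. Calumenin-B (calub), which binds calcium along the secretory route, had 255, 351 and 278 FPKM at high temperature, 14.6, 13.4 and 7.59 at low oxygen and 493, 482 and 92.3 in the combined group, against 14.2, 14.6 and 9.70 in the control. High temperature and combined libraries stood far above the control, and low oxygen did not (4.43 at high temperature, -0.13 at low oxygen and 4.37 in the combined group). One more HSP70IV model, on chromosome 10, had a low oxygen difference of -0.08 beside 2.73 at high temperature and 5.93 in the combined group. Model Chr21_398, without a name, was at 0 in all low oxygen and control libraries and at 1801, 1045 and 371 FPKM in the combined group. The fourth, assembled model 4943, is matched to a retroelement Pol polyprotein and stood at 28.7, 34.6 and 30.7 FPKM in the combined group, against 0.344, 0.268 and 0.281 in the control.

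The falls held enzymes of fatty acid synthesis and of lipid handling. Of 29 tested genes of lipid synthesis, 3 fell and 0 rose, with a list median of -0.15 beside 0.00 over all genes, and 12 were lower in each group. Of 56 genes of fatty acid oxidation and peroxisomes, 1 fell and 0 rose (median -0.49), and 34 were lower in each group. Digestive enzymes had 0 calls among 28, with 15 lower in each group, and at an unadjusted p under 0.05 8 were lower and 2 higher (median -0.61). Over all genes tested, 0.237% were called as falls and 25.9% were lower in each group. At an unadjusted p under 0.05, 929 of all 15615 genes were lower and 538 higher.

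ELOVL6, which lengthens fatty acids (chromosome 8, 3373410 to 3374243, 1 exon), had 0, 2.35 and 0 FPKM at high temperature, 2.86, 0.192 and 0.192 at low oxygen and 0.244, 16.1 and 0 in the combined group, against 36.4, 32.8 and 155 in the control. All 9 treated libraries lay below the controls, and the highest of them was combined 2. It fell (log2 difference -4.91, SE 0.82, adjusted p = 0.0332) with differences of -5.28 at high temperature, -5.04 at low oxygen and -4.39 in the combined group. FASN, fatty acid synthase (chromosome 13, 1554705 to 1575109, 25 exons), had 1.28, 1.74 and 1.17 FPKM at high temperature, 12.05, 7.47 and 16.5 at low oxygen and 1.53, 36.9 and 4.44 in the combined group, against 22.8, 327 and 244 in the control. The groups overlapped, because control 1 at 22.8 FPKM lay under combined 2 at 36.9 FPKM, and FASN fell only just within the threshold (log2 difference -4.32, SE 0.82, adjusted p = 0.0468). With 1 library left out it stayed called in 2 of 12 cases.

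ACLY, the ATP-citrate synthase that supplies acetyl-CoA (chromosome 20, 305463 to 338978), had 12.2, 12.3 and 9.88 FPKM at high temperature, 17.4, 12.7 and 14.99 at low oxygen and 11.1, 26.7 and 28.9 in the combined group, against 45.8, 60.6 and 154 in the control. It fell (log2 difference -2.24, SE 0.39, adjusted p = 0.0357), with every treated library below the lowest control. The gene matched to the cricket acyl-CoA desaturase D12Des (chromosome 15, 22972033 to 22974904) had 0.316, 1.72 and 1.44 FPKM at high temperature, 1.12, 0 and 0 at low oxygen and 0, 4.64 and 0 in the combined group, against 10.8, 9.27 and 113 in the control. It fell (log2 difference -3.84, SE 0.73, adjusted p = 0.0468), with control 3 far above the other controls. CROT, which moves acyl groups from CoA to carnitine in peroxisomes (chromosome 20, 19878324 to 19887522), had 0.237, 1.40 and 0 FPKM at high temperature, 7.63, 4.69 and 6.09 at low oxygen and 1.34, 28.98 and 0 in the combined group, against 34.7, 173 and 288 in the control. The highest treated library, combined 2 at 29.0 FPKM, lay under the lowest control at 34.7 FPKM, and the gene fell (log2 difference -5.13, SE 0.86, adjusted p = 0.0330). A neighbouring model also named Crot, 4762 bases away on the same strand, was not called (log2 difference -1.29, SE 0.33, adjusted p = 0.158).

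Other genes of lipid oxidation were lower in each group without a call. ACADL, the acyl-CoA dehydrogenase for long chains, had 0.350, 0.529 and 0.277 FPKM at high temperature, 0.415, 0.345 and 1.55 at low oxygen and 0, 1.37 and 0 in the combined group, against 3.25, 5.79 and 43.1 in the control (log2 difference -2.89, SE 0.58, adjusted p = 0.0679). ACOX3, a peroxisomal acyl-CoA oxidase, had 0.234, 1.06 and 0.695 FPKM at high temperature, 3.597, 1.32 and 0.831 at low oxygen and 0.176, 2.88 and 0.270 in the combined group, against 2.77, 9.53 and 29.98 in the control (log2 difference -2.43, SE 0.58, adjusted p = 0.125). In both, control 3 was by far the highest control. ACADL passed the filter through the control alone, so it had to be lower in the treated groups.

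**Figure D4:**
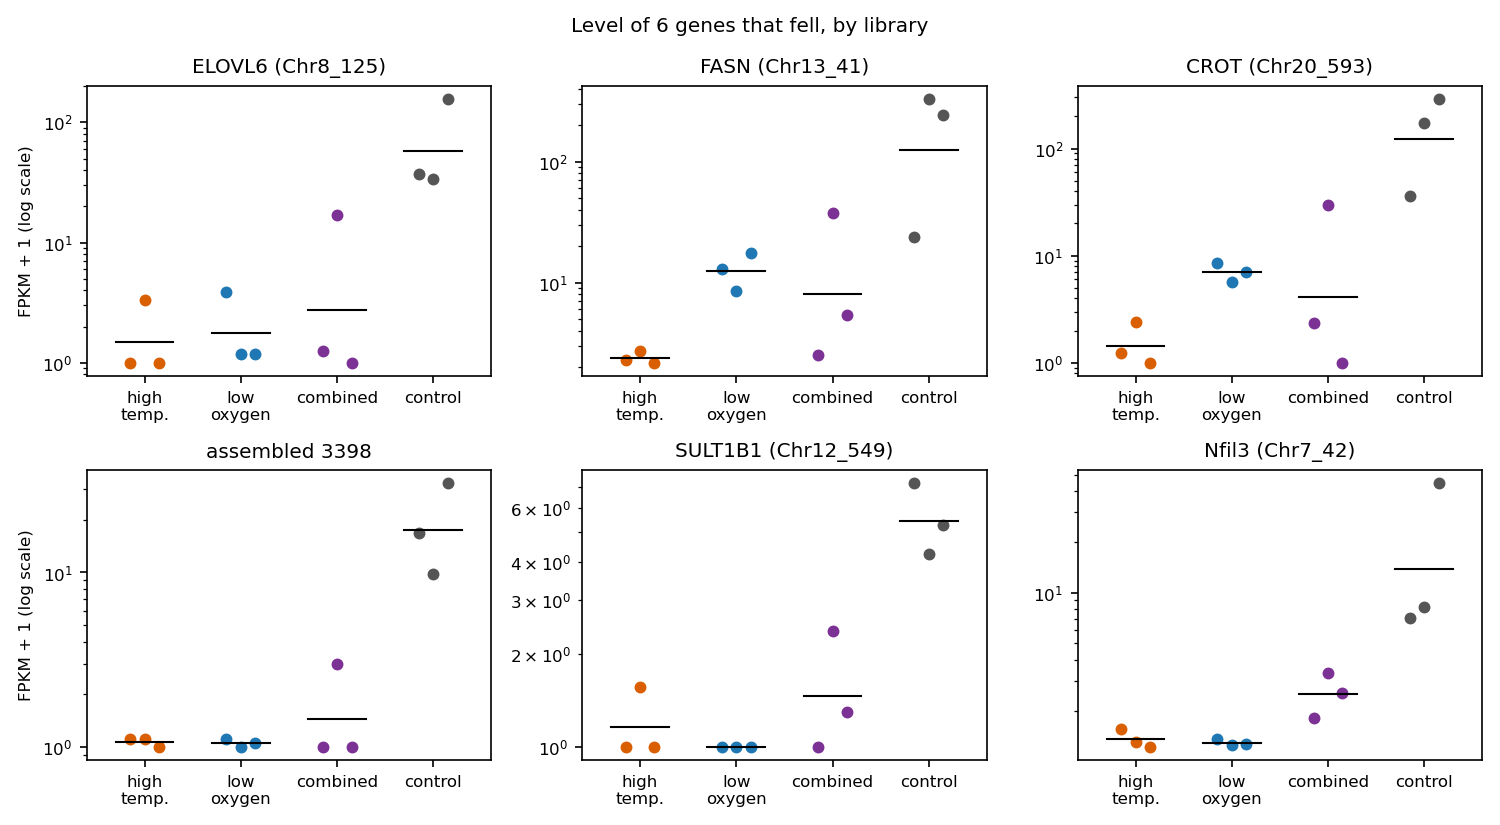
FPKM + 1 per library on a log axis for 6 genes that fell; points are the 3 libraries of a group and bars the mean on the log scale. The control libraries lie highest in each panel, apart from FASN, where control 1 at 22.8 FPKM lies under combined 2 at 36.9 FPKM.

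Models that the authors assembled outside the predicted genes lay at the ends of 3 of the falling genes and fell with them. Each lies past the annotated end of its neighbour, on the other strand. Assembled model 3398 (chromosome 2, 42195405 to 42198379) begins 2 bases past the end of Slc22a3, assembled model 6246 (chromosome 8, 3374740 to 3377448) 497 bases past ELOVL6, and assembled model 1394 (chromosome 13, 1553338 to 1554511) 194 bases past FASN. Without strand in the data, reads of such a model and of an extension of its neighbour cannot be told apart, so these 6 models may count as 3 signals.

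Assembled model 3398 had 0.113, 0.102 and 0 FPKM at high temperature, 0.107, 0 and 0.0556 at low oxygen and 0, 1.98 and 0 in the combined group, against 15.8, 8.85 and 31.5 in the control. Its treated libraries were all under 2 FPKM and its controls all above 8 FPKM. Like its neighbour Slc22a3, it was among the 15 falls that passed the filter through the control alone. It thus had to be lower in the treated groups, so its calls describe the model and support nothing. The fall (log2 difference -3.90, SE 0.41, adjusted p = 0.00377) was called with each of the 12 libraries left out in turn, the only one of the 57 genes for which this held, and it was the 1 fall called at low oxygen alone (difference -4.06, adjusted p = 0.0438). Slc22a3, an organic cation transporter (chromosome 2, 42180327 to 42195403), had 0.747, 0.621 and 0 FPKM at high temperature, 0.221, 0.0460 and 0 at low oxygen and 0, 1.03 and 0 in the combined group, against 2.17, 20.8 and 89.9 in the control. Its controls spread widely, with control 3 the highest, and it fell with a larger error (log2 difference -3.89, SE 0.72, adjusted p = 0.0448).

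Assembled model 6246 had 0, 0.289 and 0 FPKM at high temperature, 0.682, 0 and 0.0295 at low oxygen and 0, 2.19 and 0 in the combined group, against 17.6, 8.13 and 22.04 in the control and fell (log2 difference -3.66, SE 0.42, adjusted p = 0.00565), with a call in 11 of 12 cases of a library left out. Assembled model 1394 had 0, 2.75 and 0.361 FPKM at high temperature, 3.11, 0 and 14.6 at low oxygen and 2.74, 40.6 and 7.93 in the combined group, against 124, 282 and 132 in the control and fell the most of all members (log2 difference -5.30, SE 0.81, adjusted p = 0.0231). Combined 2 was its highest treated library. A further assembled model without a name, assembled model 3153, chosen after its values were seen, stayed called in 11 of 12 cases and had 0, 0.0677 and 0 FPKM at high temperature, 0.0531, 0.0736 and 0.221 at low oxygen and 0.0468, 1.44 and 0.191 in the combined group, against 4.33, 8.50 and 13.8 in the control (log2 difference -2.94, SE 0.35, adjusted p = 0.00789). Assembled models 6246 and 3153 also passed the filter through the control alone, so both had to be lower in the treated groups. Assembled model 3153 overlaps a model named Eci1 on the other strand. Eci1 was not called (log2 difference -2.67, SE 0.53, adjusted p = 0.0638), and without strand in the data their reads cannot be told apart.

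Both members matched to DHRS4, which reduces retinal and other carbonyls in peroxisomes, lie on chromosome 9. The first (chromosome 9, 2062236 to 2073681) had 15.9, 12.5 and 3.73 FPKM at high temperature, 31.01, 14.2 and 21.9 at low oxygen and 5.81, 80.4 and 11.3 in the combined group, against 107, 218 and 476 in the control. It fell (log2 difference -3.78, SE 0.69, adjusted p = 0.0421), and combined 2 came closest to the controls. The second, dhrs-4 (chromosome 9, 203473 to 222300), had 0, 1.26 and 0.0550 FPKM at high temperature, 0.856, 0.479 and 4.65 at low oxygen and 1.04, 4.61 and 0.178 in the combined group, against 24.4, 10.1 and 66.1 in the control and fell (log2 difference -3.74, SE 0.62, adjusted p = 0.0310). SULT1B1, a cytosolic sulfotransferase (chromosome 12, 20167181 to 20172583), had 0, 0.571 and 0 FPKM at high temperature, 0, 0 and 0 at low oxygen and 0, 1.38 and 0.302 in the combined group, against 6.21, 3.24 and 4.27 in the control. It was at 0 in 6 of the 9 treated libraries and fell (log2 difference -2.19, SE 0.32, adjusted p = 0.0210), with a call in 9 of 12 cases of a library left out. SULT1B1 passed the filter through the control alone, so it had to be lower in the treated groups. Aadac, an arylacetamide deacetylase of lipid and drug esters, had 1.85, 2.57 and 4.18 FPKM at high temperature, 0.0775, 0.443 and 0.403 at low oxygen and 0.717, 2.77 and 0 in the combined group, against 6.89, 10.5 and 6.86 in the control. It fell without overlap (log2 difference -2.10, SE 0.38, adjusted p = 0.0421), with differences of -1.25 at high temperature, -2.78 at low oxygen and -2.26 in the combined group.

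A fibrinogen-like protein A, known from another sea cucumber, had 0.802, 12.4 and 5.52 FPKM at high temperature, 1.71, 3.25 and 2.63 at low oxygen and 4.02, 1.42 and 5.13 in the combined group, against 46.2, 31.9 and 71.6 in the control. All 9 treated libraries lay below the controls (log2 difference -3.49, SE 0.52, adjusted p = 0.0210). This was the 1 fall among 135 lectins, complement and scavenger receptors tested, of which 0 rose (median 0.46). ANGPTL7, a secreted protein with a fibrinogen domain, was abundant in the control and had 16.5, 165 and 15.2 FPKM at high temperature, 8.99, 9.07 and 28.8 at low oxygen and 43.3, 8.70 and 49.1 in the combined group, against 279, 260.2 and 501 in the control (log2 difference -3.77, SE 0.72, adjusted p = 0.0473). High temperature 2 stood out among its treated libraries, at 165 FPKM. The gene matched to aprA, a secreted repressor of proliferation in a slime mould, fell (log2 difference -4.14, SE 0.76, adjusted p = 0.0421) although high temperature 2, at 7.14 FPKM, lay above control 2, at 5.46 FPKM.

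Nfil3, a transcriptional repressor with a basic leucine zipper (chromosome 7, 1502508 to 1509824), had 0.557, 0.309 and 0.221 FPKM at high temperature, 0.352, 0.252 and 0.275 at low oxygen and 0.814, 2.36 and 1.54 in the combined group, against 6.03, 7.27 and 43.5 in the control. It fell (log2 difference -3.07, SE 0.48, adjusted p = 0.0244), with the combined libraries highest among the treated ones. Adgrb3, an adhesion receptor coupled to G proteins, had 0.268, 1.67 and 0.0177 FPKM at high temperature, 0.551, 0.375 and 0 at low oxygen and 0.280, 0.524 and 0 in the combined group, against 2.52, 6.49 and 8.79 in the control (log2 difference -2.24, SE 0.39, adjusted p = 0.0333). The model matched to mosquito VhaA, a subunit of the proton pump that acidifies lysosomes, had 9.99, 5.55 and 3.88 FPKM at high temperature, 4.64, 4.37 and 7.39 at low oxygen and 1.53, 5.98 and 2.35 in the combined group, against 16.1, 27.9 and 29.2 in the control (log2 difference -2.14, SE 0.38, adjusted p = 0.0369). It is 530 bases long with no Pfam domain, and lies 404 bases past the end of ATP6V1A, a gene on the same strand named for the same subunit. ATP6V1A was not called (log2 difference -0.26, SE 0.42, adjusted p = 0.910), so the fall is that of the short model and not shown for the subunit. The gene named CE0034 from a bacterial kinase had 0.271, 0.491 and 0 FPKM at high temperature, 0, 0 and 0.200 at low oxygen and 0, 0.132 and 0.260 in the combined group, against 32.7, 21.7 and 1.22 in the control (log2 difference -3.39, SE 0.62, adjusted p = 0.0421), with control 3 far below the other controls and every treated library lower still. Nfil3, Adgrb3 and CE0034 passed the filter through the control alone, so they had to be lower in the treated groups.

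The receptor tyrosine kinase kit, taken after its values were seen, had 0.765, 2.08 and 1.14 FPKM at high temperature, 0.772, 1.08 and 0.897 at low oxygen and 0.360, 0.811 and 0.980 in the combined group, against 4.96, 4.75 and 4.35 in the control and fell (log2 difference -1.55, SE 0.27, adjusted p = 0.0369). Its 3 controls lay within 4.35 to 4.96 FPKM, above all 9 treated libraries. Epha5, an ephrin receptor, had 1.26, 2.94 and 2.49 FPKM at high temperature, 1.66, 3.90 and 1.91 at low oxygen and 1.47, 1.47 and 1.38 in the combined group, against 11.5, 5.66 and 10.1 in the control (log2 difference -1.72, SE 0.32, adjusted p = 0.0451). The gene matched to fly Ror had 0.560, 1.99 and 1.05 FPKM at high temperature, 2.36, 1.72 and 1.85 at low oxygen and 0.809, 1.56 and 3.31 in the combined group, against 15.1, 4.64 and 13.7 in the control (log2 difference -2.10, SE 0.39, adjusted p = 0.0454). In both, every treated library lay below the lowest control. Assembled model 5343, chosen after its values were seen, had 0 fragments in all 9 treated libraries and 31 in the control. Over the treated group it was at least 27.8-fold lower, against a floor of 3 fragments. Assembled model 5343 passed the filter through the control alone, so it had to be lower in the treated groups.

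Tmem97, a membrane protein of the endoplasmic reticulum that binds sterols, had 0, 0.324 and 0 FPKM at high temperature, 0.891, 2.05 and 0.331 at low oxygen and 0, 1.14 and 0 in the combined group, against 3.94, 4.51 and 5.29 in the control (log2 difference -1.98, SE 0.34, adjusted p = 0.0333). BXL1, named from a plant xylosidase, had 6.55, 5.78 and 2.73 FPKM at high temperature, 7.42, 13.1 and 7.38 at low oxygen and 5.12, 10.2 and 5.85 in the combined group, against 24.7, 24.6 and 40.2 in the control. It fell without overlap (log2 difference -1.97, SE 0.34, adjusted p = 0.0333), and its differences were -2.38 at high temperature, -1.59 at low oxygen and -1.95 in the combined group. A further 10 models without a name fell, with common differences between -1.50 and -3.29. The strongest of them, Chr7_230, had 15.3, 2.94 and 0.304 FPKM at high temperature, 3.10, 1.20 and 1.67 at low oxygen and 1.20, 5.80 and 2.13 in the combined group, against 24.3, 31.4 and 50.4 in the control. Next was Chr7_169, with 0, 0 and 0.260 FPKM at high temperature, 0, 0.808 and 1.13 at low oxygen and 0, 0.427 and 5.45 in the combined group, against 10.1, 10.5 and 11.5 in the control. In both, all 9 treated libraries were below the controls. Tmem97 and Chr7_169 passed the filter through the control alone, so they had to be lower in the treated groups. Of the 37 falls, the models had between 31 and 68365 fragments summed over the 3 control libraries.

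Beyond the lists above, calls were few. Of 280 solute carriers tested 1 fell, Slc22a3, and 0 rose (median -0.10), and of 55 lysosome and autophagy genes 1 fell, VhaA, and 0 rose (median -0.09). Antioxidant and glutathione genes had 0 calls among 68 (median -0.20; 6 lower and 1 higher at an unadjusted p under 0.05). Cytochromes P450 had 0 calls among 69 (median -0.22; 7 lower and 4 higher at the same level). Of all 15615 genes tested, 929 were lower and 538 higher at this level. Cyp1a1, which oxidises foreign aromatic compounds, came nearest among the P450 genes, with 1.18, 2.47 and 1.74 FPKM at high temperature, 3.19, 3.62 and 1.87 at low oxygen and 2.61, 3.07 and 4.65 in the combined group, against 11.8, 41.1 and 6.55 in the control and no overlap (log2 difference -2.16, SE 0.44, adjusted p = 0.0726). The transporter slc5a8, which carries monocarboxylates such as lactate, also missed the threshold (log2 difference -1.94, SE 0.39, adjusted p = 0.0630), with 0.975, 2.51 and 0.942 FPKM at high temperature, 0.868, 1.26 and 1.74 at low oxygen and 0.382, 1.79 and 0.624 in the combined group, against 5.33, 4.56 and 14.9 in the control. Proteasome subunits (44 tested), splicing factors (51), translation factors (49), mitochondrial ribosomal proteins (67), apoptosis genes (25) and innate immune signalling genes (29) had 0 calls, with medians between -0.15 and 0.12. Retroelements had 1 rise among 21, assembled model 4943, whose low oxygen difference had the other sign.

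The 5 named genes with the smallest p in the test over all 3 comparisons at once were falls: fibrinogen-like protein A (unadjusted p = 3.18e-04), SULT1B1 (3.85e-04), dhrs-4 (6.28e-04), Adgrb3 (8.11e-04) and ELOVL6 (8.64e-04). The smallest p of any gene was that of assembled model 3398 (adjusted p = 0.142, limma intersection-union test), which missed the threshold. SULT1B1, Adgrb3 and assembled model 3398 passed the filter through the control alone, so they had to be lower in the treated groups. Their place in this ranking supports nothing.

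Genes of the oxygen response were not among the members. Of 7 tested genes of the hypoxia-inducible factor pathway, 0 were called and 3 were higher in each group, 1 of the list with an unadjusted p under 0.05 (median 0.14). The gene hif1a, its oxygen-regulated subunit, had 178, 239.6 and 184 FPKM at high temperature, 111, 114 and 324 at low oxygen and 547, 401 and 229 in the combined group, against 163, 122 and 60.5 in the control, and the groups overlapped (log2 difference 1.09, SE 0.43, adjusted p = 0.421). Glycolysis had 0 calls among 14 genes (median -0.15), the citric acid cycle 0 among 25 (median -0.21) and oxidative phosphorylation 0 among 65 (median -0.17). Immediate early and stress transcription factors had 0 calls among 17, although 10 were higher in each group, as were 24.3% of all genes. In this list 6 had an unadjusted p under 0.05 (median 0.68), as had 9.39% of all genes. KLF2, a transcription factor of this list, had 162, 304 and 78.3 FPKM at high temperature, 87.6, 172 and 131 at low oxygen and 285, 208 and 266 in the combined group, against 52.9, 64.9 and 44.02 in the control, with no overlap (log2 difference 1.66, SE 0.38, adjusted p = 0.116). Cytosolic ribosomal proteins had 0 calls among 78, and their median differences were -0.09 at high temperature, -0.64 at low oxygen and 0.86 in the combined group.

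In bulk tissue, fewer cells of a type and less RNA per cell cannot be told apart, and markers of other cell types had unequal levels across the groups. Of 91 tested genes of cilia and flagella, 73 were higher in each treated group, as were 24.3% of all genes. At an unadjusted p under 0.05, 538 of all 15615 genes were higher and 929 lower. Of the cilia genes 0 were called, with 12 at that level (median 0.70). Their listed members summed to between 367 and 575 FPKM in the high temperature libraries, 298 and 373 in those of low oxygen and 291 and 1963 in the combined ones, against 138 to 312 in the control, with 0 members at 0 throughout. Extracellular matrix genes, 74 listed and 5 at 0 throughout, summed to 1847 to 2612, 3026 to 5322 and 3294.4 to 6503 FPKM in the same order of groups, against 1443 to 2418 in the control, with 0 calls among 50 (at an unadjusted p under 0.05, 9 higher and 1 lower). Lectins, complement and scavenger receptors (270 listed, 24 at 0) summed to 1782 to 3495, 3114 to 3865 and 3681 to 9157 FPKM, against 1593 to 3768 in the control. Neuronal genes (87 listed, 5 at 0) had 0 calls among 45 and summed to 436 to 654, 441 to 700.5 and 471 to 1565 FPKM, against 221 to 581. Muscle genes (10 listed, 0 at 0) gave 440.3 to 608, 321 to 623 and 898 to 2102 FPKM, against 309 to 958, with 0 calls among 10. The germ line list (19 listed, 1 at 0), which major yolk protein dominates, and that of cell division (49 listed, 1 at 0) had 0 calls among 16 and 40. In control 3 the sums of cilia, matrix, lectin, neuronal and muscle genes were the lowest of all 12 libraries, and that of digestive enzymes the highest. The part of cell composition in the rises and falls was not tested.

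Calls of the common contrast were lost with any library left out, and most of all without control 3. It was the highest control in 25 of the 37 falls, and the summed level of lipid synthesis genes was 1175 FPKM in control 3, against 844 and 403 FPKM in the other controls. Over the treated libraries that sum lay between 209.9 and 309 FPKM at high temperature, between 299.8 and 352 at low oxygen, and between 227 and 393 in the combined group, all below the lowest control. The sum holds the 3 genes of this list that were called as falls, so the separation describes the members and supports nothing. With control 3 left out, 0 rises and 1 fall, assembled model 3398, remained of the 57. That model passed the filter through the control alone. Leaving out control 1 gave 4 rises and 10 falls, of which 2 and 8 were among the 57, and leaving out control 2 gave 4 and 13, of which 3 and 8 were. Over all 12 cases the counts ran from 0 to 50 rises and from 1 to 70 falls. Of the 57, leaving out high temperature 1, 2 or 3 kept 14, 19 or 9 rises and 10, 34 or 5 falls. Leaving out low oxygen 1, 2 or 3 kept 4, 7 or 11 rises and 3, 7 or 11 falls. For combined 1, 2 or 3 it was 10, 14 or 18 rises and 7, 31 or 28 falls. Without the combined group 5 genes rose and 14 fell, of which 3 and 12 were among the 57. Without low oxygen 30 rose and 10 fell, with 20 and 8 among the 57, and without high temperature 14 rose and 8 fell, with 14 and 6. These last settings were chosen after the data were seen.

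**Figure D5:**
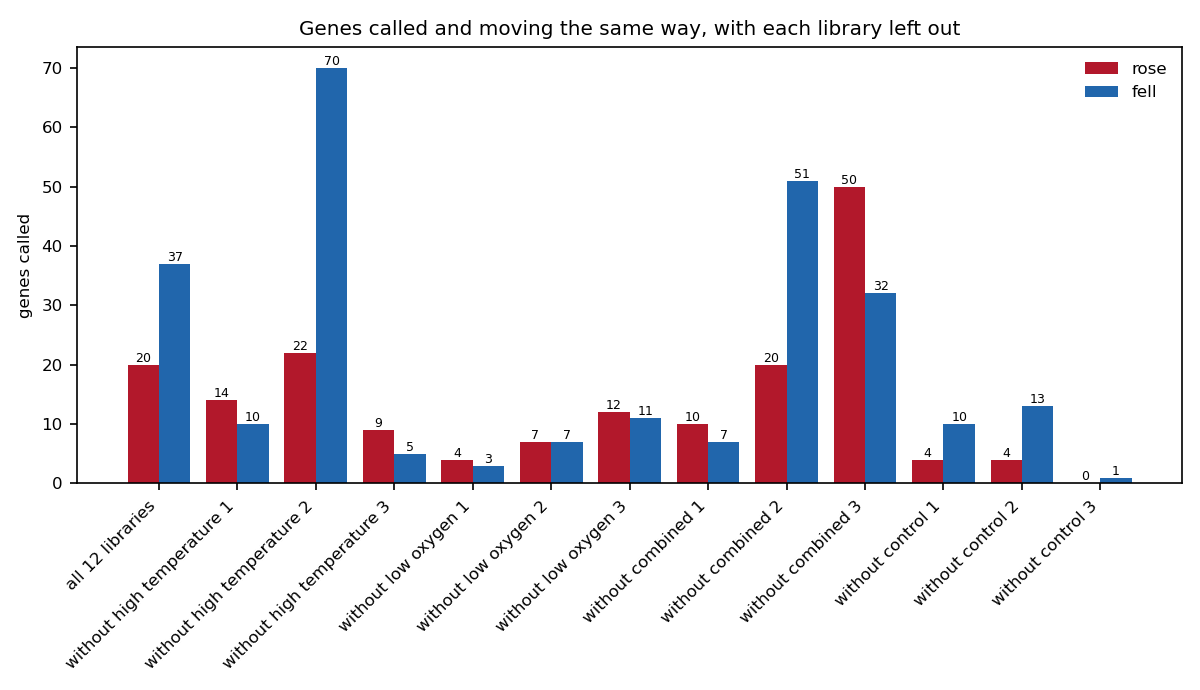
Genes called and moving the same way (y, count) with all 12 libraries and with each library left out (x), rises beside falls. The counts run from 0 rises and 1 fall without control 3 to 50 rises without combined 3 and 70 falls without high temperature 2.

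The members nearest the threshold were FASN (adjusted p = 0.0468), ANGPTL7 (0.0473) and the Hsp67Bc copy on chromosome 2 (0.0495) on the inside. DNAJA1 (0.0510), TIMP3 (0.0618), an inhibitor of matrix metalloproteinases, and an unnamed model on chromosome 5 (0.0618) were next outside (limma). TIMP3 had 40.8, 24.2 and 58.8 FPKM at high temperature, 41.5, 50.9 and 53.3 at low oxygen and 74.3, 53.1 and 43.1 in the combined group, against 14.9, 18.7 and 11.5 in the control, with no overlap and differences of 1.34 at high temperature, 1.65 at low oxygen and 1.84 in the combined group.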

How the data were processed

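Intestinal RNA of 12 animals was measured in 12 libraries. The authors deposited FPKM per gene model, per the file headers; no aligner, counter or build is given in the sources used here. FPKM times model length gave whole fragments for 100% of values, within 1e-06 of a fragment, so the count-based test (voom) could be run as an alternative. The deposited library sizes equal median-of-ratios factors over 12900 genes. No column of another sample was found (0 unused).

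Genes that reached an FPKM of 1 in 3 or more libraries were tested on log2(FPKM + 1), with limma 3.58.1 in R 4.3.3: 1 mean per group, lmFit, contrasts.fit and eBayes with a trend, two-sided, with Benjamini-Hochberg adjustment over 15615 genes. Every adjusted p of a gene is from this fit. The procedure was tested on simulated data. Fold changes on this scale understate those of low genes. No set test was run. Figures were drawn with matplotlib 3.10.9.

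The members, the 33 gene lists and the tests were chosen with earlier results of these data known. Named genes were up to 15 named rises and 15 named falls with the largest differences, called, of one sign and without overlap; up to 3 models without a name per direction; up to 3 members with the smallest p of each list described; the 5 named genes with the smallest p in the test of all 3 comparisons; and sentinels. One gene is counted among the rises but not reported here by name. Names outside the rule, such as aprA, Epha5, kit, Aadac, BXL1 and Tmem97, genes next to the threshold, and called genes without a shared sign were taken after their values were seen. Whether animals of 1 group shared a tank is not stated in the labels, so p-values measure the spread between these samples, which may be technical. Alternatives were other pseudocounts, filters, scaling, library weights, voom, the replicate number as a block, 2 groups, and libraries or groups left out.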

Additional observations from a re-analysis of the deposited data

Results flagged for a closer look

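The extent of the rise differed among the 3 treated groups, by a limma F-test that does not use the control mean, in 11 of the 18 rises that passed the filter on low values without the combined libraries. The test and the common contrast use the same estimate of spread, so a small spread favours both calls. A very high mean in the combined group also raises both, so the count describes the members. None of the 37 falls was called, and 15 of these passed the filter through the control alone; 2 had an unadjusted p under 0.05. Among named genes the adjusted p was 0.0184 and 0.00936 for the 2 HSP70IV copies of chromosome 2, 0.00739 for Hsp67Bc on chromosome 17 and 0.0218 for Hsp67Bc on chromosome 2. It was 0.0257 for AHSA1, 0.0136 for hsp90ab1, 0.00265 for HSP110, 0.00114 for DNAJB4 and 1.19e-04 for SrpRalpha. Among models without a name it was 0.00254 for Chr16_346 and 0.00265 for Chr17_266. The combined group had the largest difference from control in each of these 11 genes. Effective library sizes of combined 1 and combined 3 were 0.529 and 0.526 of their totals, and the part of this in the differences was not tested.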

How the results depend on the processing

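No result of the 57 genes reversed direction in any of the 25 settings tried, over 1391 values: 660 stayed called and 731 were no longer called. With each library left out in turn, rises of one sign ran from 0 to 50 and falls from 1 to 70; all rises of the common contrast from 1 to 54 and all falls from 1 to 70. In the same cases the high temperature comparison called 0 to 23 genes, that of low oxygen 0 to 6 and that of the combined group 27 to 182, with 0 to 2 in all 3 comparisons at once, and the counts were 17 to 62 for the difference among treated groups, while genes with all 9 treated libraries above the controls ran from 125 to 376 and below from 218 to 486, which use fewer libraries.

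A pseudocount of 0.1 gave 3 falls, all of one sign, with 7 genes called at high temperature, 0 at low oxygen and 74 in the combined group. A pseudocount of 5 gave 12 rises of one sign, 18 genes at high temperature and 0 at low oxygen. Without a filter there were 11 rises, 9 of one sign, and 14 falls, 14 of one sign, with 1 gene in all 3 comparisons at once, 2 at low oxygen and 80 in the combined group. A filter at 5 FPKM gave 17 falls, 17 of one sign, 0 genes at low oxygen and 111 with all treated libraries below the controls, from fewer genes tested. Equal totals, which moved the median of all genes to -0.14, gave 9 rises, 8 of one sign, against 33 falls of one sign, with 23 genes for the difference among treated groups, 5 at low oxygen and 50 with all treated libraries above the controls. Voom on recovered fragments gave 12 rises, 11 of one sign, against 25 falls of one sign, with 7 genes at high temperature, 0 at low oxygen and 57 in the combined group. Library weights gave 267 rises, 246 of one sign, and 394 falls, 392 of one sign, with 205 genes at high temperature and 185 at low oxygen; control 2 had a weight of 5.46, against 0.334 to 1.84 for the others. With 2 groups, treated against control, 0 genes rose (the spread among treated groups then counts as error) and 32 of the 37 falls were called.

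The replicate number as a block gave 17 falls, 17 of one sign, 20 rises of one sign, 17 genes at high temperature and 0 at low oxygen. The numbers do not pair the samples: correlations of same-numbered deviations ran from -0.17 to 0.18, 6 of 18 were over 0.1, and 4 of 12 libraries correlated best with their own number. Settings chosen after seeing the data follow. Without combined 1 and combined 3, whose group then has 1 library assumed to vary like the others, there were 40 rises, 36 of one sign, and 12 falls, 12 of one sign, with 38 genes at high temperature, 5 at low oxygen and 63 in the combined group. Without the high temperature group there were 8 falls, 8 of one sign, and without the low oxygen group 10 falls, 10 of one sign. Without the combined group there were 6 rises, 5 of one sign, and 14 falls, 14 of one sign. For these changes the cause was not tested, apart from the constructions named. Only 3 control libraries enter every comparison, so anything that sets them apart cannot be told apart from a common response.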
